A study of Mus musculus with 2 samples.

Results

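AP-1 is a family of dimeric transcription factors whose subunits come from the Jun, Fos, Batf and Atf groups, and 10 of its genes were followed here in T-ALL (acute lymphoblastic leukaemia of the T lineage) from the mouse. The genes were chosen by name, namely Jun, Junb, Jund, Fos, Fosb, Fosl1, Fosl2, Batf, Batf3 and Atf3. All 10 were found by their Entrez Gene numbers among the 27179 genes of the deposited table. The leukaemia, ALL65, was a single primary leukaemia carrying the transgenes Vav-tTA and TRE-GFP-shIkaros. The Vav promoter, active across blood cells, drives the tetracycline transactivator, which in turn drives green fluorescent protein (GFP) with a short hairpin RNA against Ikaros, the zinc finger factor encoded by Ikzf1. Doxycycline (Dox) switches the hairpin off, and Ikaros is again made from the cells' own gene. One group was GFPmid leukaemia cells sorted from spleens of leukaemic recipient mice given Dox for 3 days, and the other was GFPhigh cells sorted from spleens of untreated leukaemic recipients. Treatment and sort gate therefore cannot be told apart, and both groups share the transgenes and the leukaemia of origin.

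Each group is represented by 1 library, although the design text speaks of 3 mice per group, so no value has a replicate error and no test was possible. Bounds in brackets are exact 95% intervals that cover counting error only. The Dox library held 14457475 counts and the untreated library 7477988 counts. Levels are CPM, counts scaled to a common library size, with library sizes adjusted by the trimmed mean of M values (TMM). A limit of 3 counts, used for genes with few counts, equals 0.211 CPM in the Dox library and 0.395 CPM in the untreated library. The exact 95% interval of a count of 0 reaches higher, to 0.259 CPM with Dox and 0.485 CPM without. Ikzf1, the targeted gene, stood at 1455 CPM with Dox and 262 CPM without, a log2 ratio of 2.47 (2.41 to 2.54). The T cell markers summed to 4391 CPM with Dox and 4118 CPM without, with 9 of 10 averaging over 1 CPM across the libraries. The sum was carried by abundant genes such as Thy1 and Lck, and 2 of the 10 markers were higher by 2-fold or more. These were Cd2, an adhesion receptor, at 109 CPM with Dox and 10.1 CPM without, a log2 ratio of 3.40 (3.09 to 3.77), and Cd5, a receptor that dampens antigen receptor signals, at 71.2 CPM with Dox and 11.4 CPM without, a ratio of 2.62 (2.32 to 2.97). The T cell markers did not move together. Cd3g, Cd3d, Lck and Cd3e stood lower with Dox, at -0.28, -0.25, -0.21 and -0.09. Cd247, Cd28 and Thy1 stood higher, at 0.78, 0.69 and 0.09. Ptcra, which encodes the pre-T cell receptor alpha chain, had 0 counts with Dox and 3 counts without. All 8 B cell markers were under 1 CPM in both libraries.

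AP-1 proteins bind DNA as pairs held together by a leucine zipper, and the basic region beside the zipper reads the site TGACTCA or the related cyclic AMP response element TGACGTCA. Jun proteins pair with themselves, with each other and with Fos proteins, while Fos proteins need a Jun partner. Batf proteins lack a transactivation domain of their own and bind with a Jun partner, often beside the interferon regulatory factors Irf4 or Irf8. In T cells, AP-1 links signals from the antigen receptor and from stress kinases to gene transcription, in part together with NFAT proteins.

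The members did not stand together. Jun was 5.46-fold lower in the Dox library, Batf was 2.35-fold higher, Jund and Fos were higher by less than 2-fold, and Junb differed by less than its counting error. Of the 10 members, 5 (Jun, Junb, Jund, Fos and Batf) reached 5 CPM in whichever library was higher, which was the minimum for a call. With a fold of at least 2, 1 of these 5 was called lower (Jun), beside 2.24% of all 10113 genes past the same minimum. Likewise 1 of the 5 was called higher (Batf), beside 2.21% of all genes. Fosb and Fosl2 were lowly expressed, and Fosl1, Batf3 and Atf3 were at or under 3 counts in both libraries. The median log2 ratio of the 7 members averaging 1 CPM or more was 0.33, and the median of the 11498 genes past that minimum was 0.01.

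**Figure D1:**
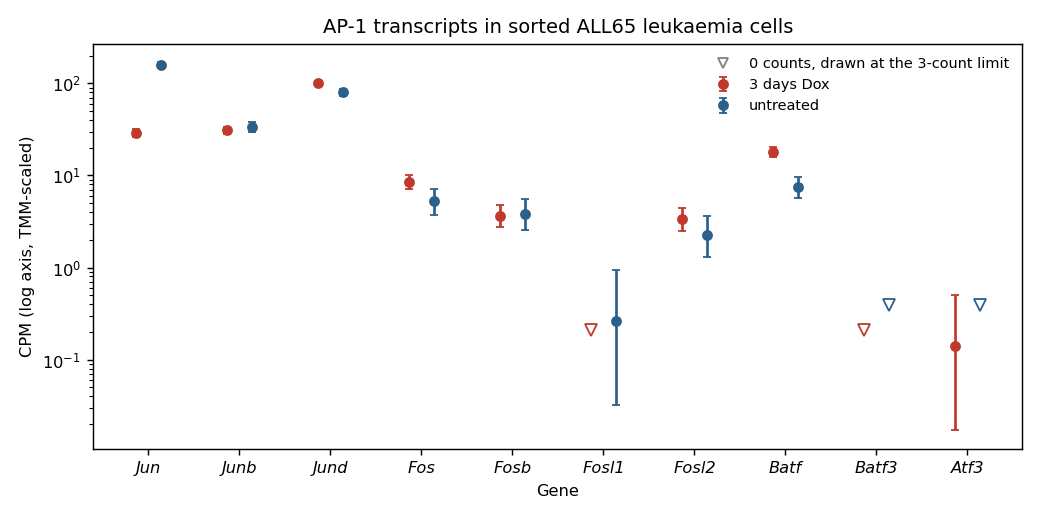
Levels of the 10 AP-1 genes in CPM (log axis) in the 3-day Dox library (red, left of each pair) and the untreated library (blue, right of each pair), 1 library each, with exact 95% counting intervals. Jun stands at 29.1 CPM with Dox and 160 CPM without, Batf at 17.9 CPM with Dox and 7.50 CPM without, and open triangles mark a count of 0 at its 3-count limit.

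Jun encodes c-Jun, the founding AP-1 subunit and the main nuclear substrate of the JNK kinases, and its gene is known to be activated by AP-1-type dimers at its own promoter. In mm10 the gene (Entrez Gene 16476) spans chromosome 4 from 95049036 to 95052222 on the minus strand. It has no intron, and the counted length of 3187 bases equals its whole span. In the 300 bases from 250 before to 50 after the annotated start (RefSeq, GRCm38.p6, chr4:95052173-95052472, minus strand), both known variant AP-1 elements of the Jun promoter are present, and they are printed in capitals because no other member's window holds either of them.
Jun: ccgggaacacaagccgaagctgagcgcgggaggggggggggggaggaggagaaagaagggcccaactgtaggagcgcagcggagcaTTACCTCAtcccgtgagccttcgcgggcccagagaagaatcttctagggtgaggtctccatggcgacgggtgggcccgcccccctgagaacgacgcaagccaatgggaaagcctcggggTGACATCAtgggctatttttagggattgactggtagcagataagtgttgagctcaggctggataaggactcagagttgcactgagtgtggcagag
The elements are TTACCTCA, whose first base lies at -164 from the start site, and TGACATCA, whose first base lies at -45, both on the gene's strand. On either strand, TTACCTCA was present in 0.89% and TGACATCA in 3.62% of 32817 RefSeq promoter windows of this length. The full AP-1 site TGACTCA and the site TGACGTCA were in 0 of the 9 member windows searched, against 5.20% and 1.79% of all windows. GGGAA, the core that Ikaros zinc fingers recognise, occurred at 2 places in the Jun window, but 62.7% of all windows held it at least once. These matches describe letters and say nothing of binding in these cells. Fosl1 had no promoter window and was not searched.

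Jun had 414 counts in the Dox library and 1214 counts in the untreated library, although the Dox library was the deeper of the pair. The levels were 29.1 CPM with Dox (26.4 to 32.0) and 160 CPM without (151 to 169). The log2 ratio was -2.45 (-2.62 to -2.29), so that even the bound nearest to 0 lay past 4-fold. Among the 10113 genes past the 5 CPM minimum, 22 had a lower ratio. Among 2375 genes whose mean level was within 1.5-fold of that of Jun, 3 had a lower ratio. The 4 genes of like mean level and nearest log2 ratio were Il9r, the interleukin 9 receptor gene, at -2.61, Emx2, a homeobox gene, at -2.24, Ctnnd1, the p120 catenin gene, at -2.80, and Slfn9, a Schlafen gene, at -1.95. This likeness rests on 2 libraries. An antisense RNA gene, Junos, overlaps Jun in GENCODE, and without a stated strand setting the reads of both cannot be told apart.

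**Figure D2:**
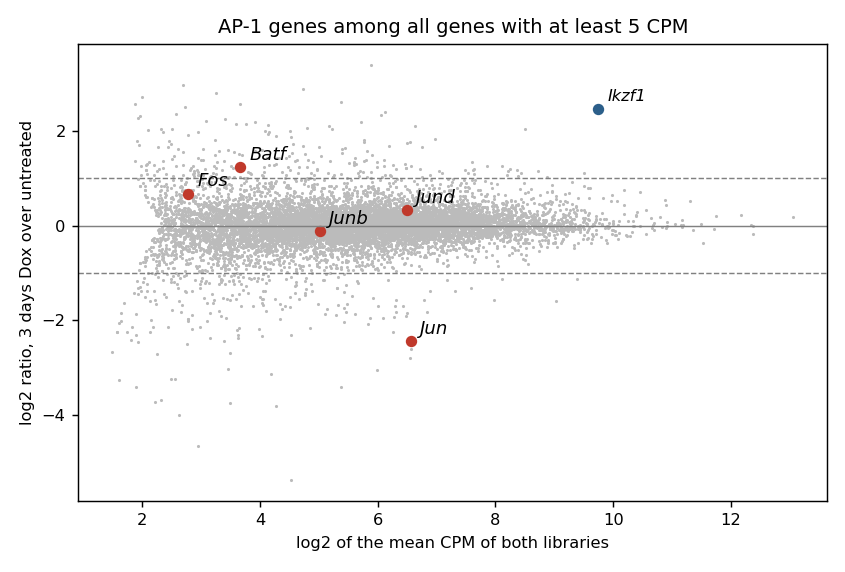
Log2 ratio of 3 days Dox over untreated against the log2 of the mean CPM for genes past the 5 CPM minimum (grey), with the 5 AP-1 genes past that minimum in red, Ikzf1 in blue and dashed lines at 2-fold. Jun at -2.45 lies among the lowest ratios at its level, Batf at 1.23 lies above the upper line, and Junb, Jund and Fos lie between the lines.

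Junb and Jund, the other Jun-family genes, did not share the size of the Jun difference, and neither has an intron. JunB and JunD bind the same sites as c-Jun but are weaker activators in many settings and can oppose it in growth control. Junb (chromosome 8 from 84976909 to 84978748, minus strand) had 440 counts with Dox and 256 counts without, with levels of 30.9 CPM with Dox (28.1 to 34.0) and 33.7 CPM without (29.7 to 38.1). Its log2 ratio of -0.12 had bounds of -0.35 to 0.10, so no difference was detectable at this depth. Jund (chromosome 8 from 70697739 to 70700616, plus strand) had 1430 counts with Dox and 606 counts without, with levels of 101 CPM with Dox (95.4 to 106) and 79.7 CPM without (73.5 to 86.3). The Jund log2 ratio was 0.33 (0.20 to 0.47), higher with Dox beyond counting error but within 1.5-fold. A GENCODE antisense gene, Gm11175, overlaps Jund. The intervals of Junb and Jund did not overlap each other, and both lay far from that of Jun.

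**Figure D3:**
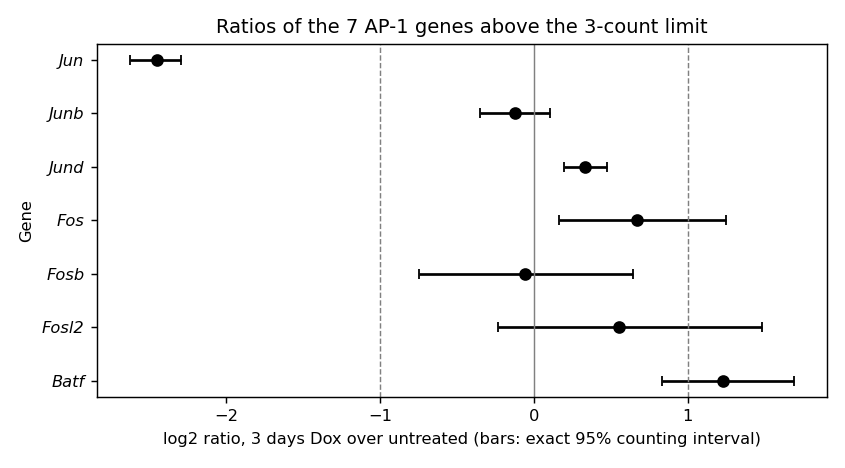
Log2 ratio of 3 days Dox over untreated for the 7 AP-1 genes with more than 3 counts in at least 1 library, with exact 95% counting intervals and dashed lines at 2-fold. The interval of Jun (-2.62 to -2.29) lies apart from all others, those of Jund, Fos and Batf lie above 0, and those of Junb, Fosb and Fosl2 include 0.

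The make-up of the Jun family therefore differed between the libraries. Divided by gene length, Jun gave 15.0% of the summed CPM per kilobase of Jun, Junb and Jund with Dox, against 52.1% without. Jund gave 57.4% with Dox and 28.8% without, and Junb 27.6% with Dox and 19.0% without. As a share of the family's counts, with no length correction, Jun held 414 of 2284 counts (18.1%, 16.6% to 19.8%) with Dox and 1214 of 2076 counts (58.5%, 56.3% to 60.6%) without, with exact Clopper-Pearson bounds. These shares do not depend on how the libraries were scaled. The family as a whole stood at 161 CPM with Dox and 273 CPM without, a log2 ratio of -0.77 (-0.85 to -0.68), so the higher Jund level did not make up for the lower Jun level.

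**Figure D4:**
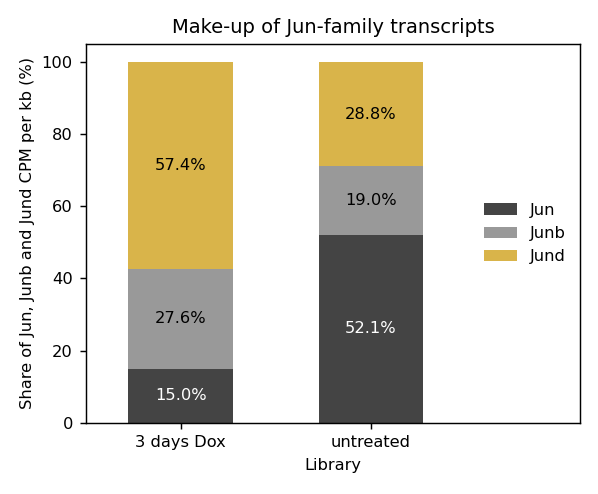
Share of Jun, Junb and Jund in their summed CPM per kilobase (%), in the 3-day Dox library (left bar) and the untreated library (right bar), 1 library each. Jun takes 15.0% with Dox and 52.1% without, and Jund takes 57.4% with Dox and 28.8% without.

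Fos-family transcripts were scarce in both libraries. Fos encodes c-Fos, the classical immediate early partner of Jun, whose gene is switched on within minutes by serum response factor and cyclic AMP signals. Fos (chromosome 12 from 85473890 to 85477274, plus strand) had 121 counts with Dox and 40 counts without, with levels of 8.51 CPM with Dox (7.06 to 10.2) and 5.26 CPM without (3.76 to 7.17). Its log2 ratio was 0.67 (0.17 to 1.25), higher with Dox in these libraries, with a wide interval. Fosb, a closely related immediate early gene, had 52 counts with Dox and 29 counts without, and a log2 ratio of -0.06 (-0.74 to 0.65). Fosl2, which encodes the longer-lived protein Fra-2, had 48 counts with Dox and 17 counts without, and a log2 ratio of 0.56 (-0.23 to 1.48). For neither gene was a difference detectable at this depth. Fosl1, which encodes Fra-1, had 0 counts with Dox and 2 counts without, at which no fold can be given, and Ccdc85b overlaps it on the opposite strand.

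The Fos and Jun families also differed in total level. The 4 Fos-family genes summed to 5.61 CPM per kilobase with Dox and 4.06 CPM per kilobase without, while the 3 Jun-family genes summed to 60.9 CPM per kilobase with Dox and 96.1 CPM per kilobase without. Within the Fos family, Fos gave 72.5% of the summed CPM per kilobase with Dox and 61.9% without. As a share of the family's counts, Fos held 54.8% (47.9% to 61.4%) with Dox and 45.5% (34.8% to 56.4%) without. These intervals overlapped, so no difference in this share was detectable at this depth. The summed Fos-family counts, 221 with Dox and 88 without, had a log2 ratio of 0.42 (0.06 to 0.80).

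Batf was the member called higher. It encodes a short AP-1 protein that pairs with Jun proteins and acts with Irf4 at composite sites in T cells. Batf (Entrez Gene 53314, chromosome 12 from 85686720 to 85709087, plus strand) had 254 counts with Dox and 57 counts without, with levels of 17.9 CPM with Dox (15.7 to 20.2) and 7.50 CPM without (5.68 to 9.72). The log2 ratio was 1.23 (0.83 to 1.69), so the lower bound did not reach 2-fold, and the call is also lost with a minimum of 20 CPM. Of 1527 genes whose mean level was within 1.5-fold of that of Batf, 28 had a higher ratio. The nearest log2 ratios at a like level were those of Ms4a6c at 1.23, Arid5b at 1.23, Ifi214 at 1.22 and Eif4e3 at 1.21, again over 2 libraries. Batf and Fos lie 209 kb apart on chromosome 12, and their promoter windows are shown together because each holds the core TGACGT of the cyclic AMP response element, printed in capitals, on the gene's strand (RefSeq, GRCm38.p6, chr12:85686470-85686769 for Batf and chr12:85473640-85473939 for Fos, both on the plus strand).
Batf: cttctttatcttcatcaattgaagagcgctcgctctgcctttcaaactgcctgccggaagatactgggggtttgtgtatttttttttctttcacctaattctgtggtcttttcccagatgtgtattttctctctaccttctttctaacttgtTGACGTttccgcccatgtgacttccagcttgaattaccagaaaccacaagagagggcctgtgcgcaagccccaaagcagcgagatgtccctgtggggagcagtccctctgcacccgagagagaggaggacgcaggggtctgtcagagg
Fos: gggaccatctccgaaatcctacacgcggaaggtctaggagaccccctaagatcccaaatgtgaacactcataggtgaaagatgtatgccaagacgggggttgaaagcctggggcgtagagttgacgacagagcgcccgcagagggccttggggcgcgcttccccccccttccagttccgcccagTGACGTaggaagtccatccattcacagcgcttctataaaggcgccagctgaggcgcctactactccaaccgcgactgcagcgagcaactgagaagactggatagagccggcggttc
The core begins at -98 in the Batf window and at -66 in the Fos window, and 7.51% of all windows held it on either strand. Atf3 was the other member whose window held it, so the core was present in 3 of the 9 member windows.

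Batf3 and Atf3 were not detected above the 3-count limit. Batf3, known for its part in the development of cross-presenting dendritic cells, had 0 counts in both libraries. Atf3, a stress-induced factor that often represses its targets, had 2 counts with Dox and 0 counts without. No fold is given for either.

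Ordered by level per length, the Dox library had Jund first at 34.9 CPM per kilobase, then Batf at 19.8, Junb at 16.8, Jun at 9.13, Fos at 4.06, Fosb at 0.968 and Fosl2 at 0.575. The counting intervals of the neighbours Batf and Junb overlapped, as did those of Fosb and Fosl2. In the untreated library Jun was first at 50.1 CPM per kilobase, then Jund at 27.7, Junb at 18.3, Batf at 8.30, Fos at 2.51, Fosb at 1.01 and Fosl2 at 0.381, and no neighbours among these 7 overlapped. Jun thus stood below Batf and Junb with Dox and above all others without.

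Other factors of the same basic leucine zipper class showed small differences where they passed the 5 CPM minimum. Of 20 listed, 13 passed the 5 CPM minimum and 0 of these reached 1.5-fold in either direction. Of all genes past the minimum, 6.28% were higher by that fold and 6.18% were lower by it, so 0 of 13 is not far from those shares. The 4 with the largest absolute ratios were Bach2, a repressor at related sites, at 0.54 (0.32 to 0.77), Ddit3 at -0.51 (-0.90 to -0.14), the small Maf gene Mafg at -0.45 (-0.82 to -0.09) and Atf7 at -0.27 (-0.62 to 0.08). Jdp2, a Jun dimerisation protein that represses AP-1 sites and whose gene lies between Fos and Batf, stood at 69.5 CPM with Dox and 69.9 CPM without, a log2 ratio of -0.01 (-0.16 to 0.15). Under the 5 CPM minimum, Maf had 32 counts with Dox and 37 counts without, a log2 ratio of -1.05 (-1.84 to -0.39). Maff had 27 counts with Dox and 35 counts without, a log2 ratio of -1.20 (-2.06 to -0.51). Both intervals lay below 0, in the direction of Jun, at levels too low for a call.

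Genes upstream of Jun and Fos did not show a difference of the size seen for Jun, but few genes of any kind stood that low. Of the 10113 genes past 5 CPM, 22 had a lower ratio than Jun. In the branch of the JNK kinases, 12 of 13 genes passed 5 CPM, 1 was higher by 1.5-fold or more and 0 were lower by as much. Of all genes past 5 CPM, 6.28% were higher by that fold and 6.18% were lower. The lists here are too short for such counts to set them apart. The kinase genes Mapk8 and Mapk9, which encode JNK1 and JNK2, had log2 ratios of -0.06 and -0.02. Map3k1, a kinase that feeds into JNK, stood at 0.70 (0.56 to 0.83), followed by Map3k5 at 0.41, Map4k1 at 0.30 and Map3k11 at 0.19. Of the ERK and p38 branches 13 of 15 genes passed the minimum and 2 were at least 1.5-fold higher, Mapk11, a p38 kinase gene, at 0.78 (0.46 to 1.14) and Rps6ka1 at 0.60 (0.49 to 0.72), with Braf at 0.36 and Mapk3 at 0.30 next. Serum response factor (Srf) stood at 0.23 (0.10 to 0.36), and 0 of the 6 genes of Srf and its cofactors reached 1.5-fold, with Mrtfa at 0.41, Elk3 at -0.38 and Elk4 at 0.38.

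The genes for turnover of Jun and Fos proteins and for their partners were likewise mostly within 1.5-fold, as were most genes measured. Of all genes past 5 CPM, 6.28% were higher and 6.18% were lower by that fold. Of 13 turnover genes 1 was at least 1.5-fold higher, Trib2, a pseudokinase scaffold of the COP1 ubiquitin ligase, at 0.67 (0.58 to 0.75). Itch, a ubiquitin ligase of Jun and JunB, followed at 0.51 (0.39 to 0.63), then Trib1 at -0.25 and Dda1 at 0.23. Among the 6 IRF and NFAT genes, Irf4, whose product binds beside Batf, was the gene at least 1.5-fold lower, at 31.2 CPM with Dox and 57.8 CPM without and a log2 ratio of -0.88 (-1.08 to -0.69). Irf8 stood at 0.34 (-0.02 to 0.72), Nfatc1 at 0.45 (0.32 to 0.57) and Nfatc2 at 0.30 (0.07 to 0.54). Batf and Irf4 thus stood in opposite directions in these libraries.

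The other immediate early genes past the 5 CPM minimum did not stand as low as Jun, but few genes of any kind did. Of 21 listed, 15 passed the 5 CPM minimum. Of these, 8 were higher by 1.5-fold or more, 3 of them by 2-fold or more, and 0 were lower by 1.5-fold. Of all genes past the minimum, 6.28% were higher by 1.5-fold, 2.21% were higher by 2-fold and 6.18% were lower by 1.5-fold. With 15 genes, a count of 0 lower is near that last share. Socs3 was lower by less than 1.5-fold, at -0.54 (-0.85 to -0.25). Over the 16 genes averaging 1 CPM or more, the median log2 ratio was 0.52. Nr4a3, Egr2 and Nr4a1, early genes of antigen receptor signals, had log2 ratios of 2.71 (1.84 to 4.28), 2.04 (1.38 to 2.98) and 1.49 (1.30 to 1.70). Nr4a3 rested on 100 counts with Dox and 7 counts without. Egr1 stood at 0.93 (0.79 to 1.08). These genes are known to respond to cell handling as well as to signals, and the part of handling in the AP-1 values was not tested.

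**Figure D5:**
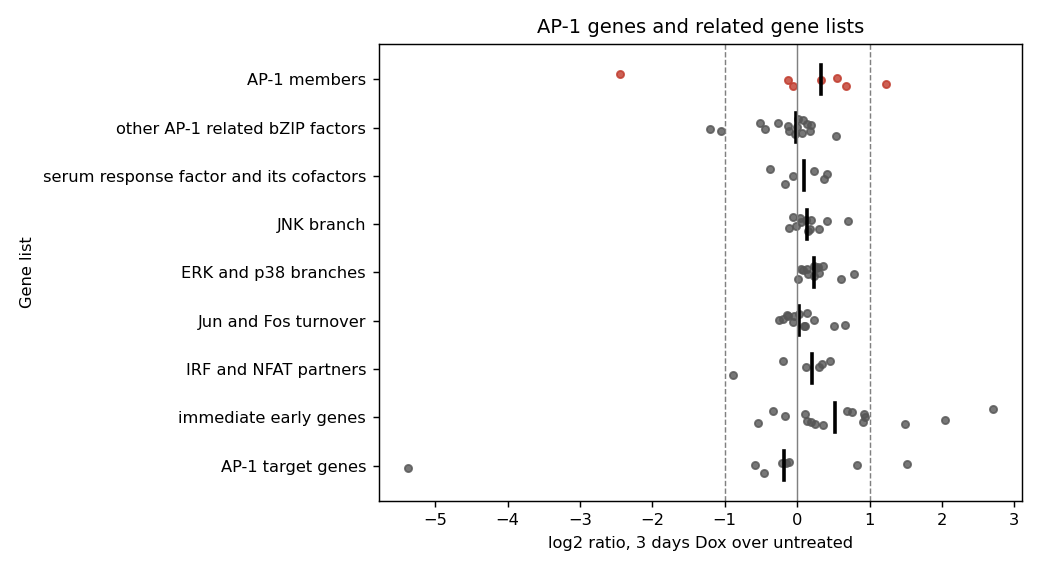
Log2 ratio of 3 days Dox over untreated for each gene averaging 1 CPM or more (points), by gene list, with the list's median as a black bar and dashed lines at 2-fold. Jun is the leftmost AP-1 gene (red) at -2.45, the immediate early genes have a median of 0.52, and the lowest point is Il2ra at -5.38.

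Genes known as AP-1 targets stood in both directions. Of 21 listed, 13 were under 1 CPM in both libraries, among them Il2, Il3, Il4, Il13, Ifng, Fasl and Ccl3 with 0 counts in both. Of the 5 past the 5 CPM minimum, 1 was called higher and 1 was called lower, beside 2.21% and 2.24% of all genes. Il2ra, which encodes the interleukin 2 receptor alpha chain, stood at -5.38 from 13 counts with Dox and 345 counts without. Vim, the vimentin gene, stood at 1.52 (1.23 to 1.84) from 573 counts with Dox and 106 counts without. Ccnd1, the cyclin D1 gene, was at 250 CPM with Dox and 374 CPM without, a log2 ratio of -0.58 (-0.66 to -0.51), and Cdkn2a followed at -0.22 (-0.76 to 0.33).

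Markers of other cell types that a spleen sort could hold were measured beside the Jun and Batf values. The 10 stromal and endothelial markers summed to 330 CPM with Dox and 361 CPM without, with 6 of them under 1 CPM in both libraries and Col3a1, Kdr and Cdh5 at 0 counts in both. Most of this sum came from Pecam1 and Col1a2, which stood in opposite directions. Pecam1 was at 205 CPM with Dox and 159 CPM without, a log2 ratio of 0.37 (0.27 to 0.47). Col1a2 was at 112 CPM with Dox and 165 CPM without, a ratio of -0.56 (-0.67 to -0.45). Pdgfrb of that list, at 10.5 CPM with Dox and 35.3 CPM without, stood at -1.72 (-2.04 to -1.45). The 12 dendritic cell markers summed to 57.4 CPM with Dox and 128 CPM without, mostly MHC class II genes and Cd74. Cd74 at -2.50 (-3.29 to -1.97), H2-Aa at -2.17 (-2.47 to -1.91) and H2-Eb1 at -1.60 (-2.25 to -1.09) were lower by 2-fold or more. H2-Ab1, at 38.3 CPM with Dox and 58.3 CPM without, stood at -0.60 (-0.79 to -0.42). Of the 12, these 4 passed the 5 CPM minimum, and all 4 were lower by 1.5-fold or more, beside 6.18% of all genes. Under the minimum, Flt3 (19 counts with Dox, 3 without) stood at 1.39 (-0.01 to 4.16). Itgae (25 counts with Dox, 5 without) stood at 1.21 (0.01 to 3.16). Both were at levels too low for a call. Zbtb46 and Cd209a of that list were at 0 counts in both. The 10 myeloid markers summed to 23.5 CPM with Dox and 19.9 CPM without, with Mpo, Elane, Ly6g and S100a8 at 0 counts in both. They did not move together, since Lyz2, the lysozyme gene, stood lower like Jun, at 1.69 CPM with Dox and 7.24 CPM without, a log2 ratio of -1.99 (-2.86 to -1.38). Cd68 and Itgam of the same list stood higher, at 0.88 (0.26 to 1.61) and 0.79 (0.39 to 1.23). The 7 NK cell markers summed to 5.55 CPM with Dox and 1.97 CPM without, with Ncr1, Klrk1, Klrd1 and Klra8 at 0 counts in both. Nearly all of that sum came from Prf1 and Nkg7. Prf1 had 35 counts with Dox and 3 without, a log2 ratio of 2.19 (0.97 to 4.99). Nkg7 had 41 counts with Dox and 9 without, a ratio of 1.16 (0.22 to 2.51). In such bulk samples, fewer cells of a type and less RNA per cell cannot be told apart, and the part of these markers' cells in the AP-1 ratios was not tested.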

How the data were processed

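The authors' deposited tables hold counts, whole numbers of reads per gene, without normalization, for 1 library from mice given Dox for 3 days and 1 from untreated mice. Per the submitters' processing notes, CASAVA 1.8.2, featureCounts and mm10 were used. The aligner, annotation, strand setting and the way 3 mice and 2 sequencing runs per group were combined are likewise steps not given in the sources used here. Between the series table and the separate files, 0 values differed. Symbols and positions came from RefSeq on GRCm38.p6 (the assembly of mm10), which matched 25275 of 27179 genes.

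Counts were scaled with TMM in edgeR 4.0.16 (R 4.3.3), with factors of 0.984 for the Dox library and 1.02 for the untreated library. Log2 ratios of Dox over untreated used a prior count of 2. Intervals are exact Clopper-Pearson intervals of a gene's counts, and exact Poisson intervals for CPM. A call needed a 2-fold difference and 5 CPM in the higher library. No test was run, since a group has 1 library. Named genes were all members, the 4 largest absolute ratios of each pathway list past 5 CPM, any member of a pathway list that was called, and for each called member the 4 genes of like level with the nearest ratio. Others, such as Jdp2, Mapk8, Mapk9 and the single marker genes, were chosen after their values were seen. The members and lists were chosen with earlier results of these data known. The ratios and intervals were tested on simulated Poisson counts, which hold counting error but no spread between mice or libraries. Alternatives were total counts or DESeq2 1.42.0 size factors as the scaling, a prior count of 0.5 or 5, minimums of 1 and 20 CPM and none, the interval bound as the criterion, and, added after seeing the data, subtraction of the median ratio of the gene's length decile. The other steps were run in Python 3.11.15 (scipy 1.17.1, pandas 2.3.3, matplotlib 3.10.9).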

Additional observations from a re-analysis of the deposited data

How the results depend on the processing

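Across scalings, prior counts and the length correction, the log2 ratio of Jun ranged over -2.50 to -2.44 and that of Batf over 1.19 to 1.25, and the other 5 members with a ratio stayed inside their counting intervals. Batf lost its call with a minimum of 20 CPM and with the interval bound as the criterion, both of which gave 0 members higher. Without a minimum, 2 members were lower, the added one being Fosl1 with 0 counts with Dox and 2 without. With a minimum of 20 CPM the members' median was -0.12, since that setting keeps only Jun, Junb and Jund. The count of genes at least 2-fold higher was 407 with a minimum of 1 CPM, 129 with 20 CPM, 784 without a minimum and 115 with the interval bound, and of genes lower 440, 104, 744 and 141, against 223 and 227. On raw counts the Jun share of the family differed by -40.4 percentage points (Dox minus untreated), against -37.1 per length. Fosl1, Batf3 and Atf3, at or under 3 counts in both libraries, are given no ratio of their own, and their fitted ratios enter only the settings with no minimum. No paired analysis was possible because each group has 1 library. Depth limits the Fos-family ratios, and nothing here measures the spread between mice.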

Other observations

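The chromosomal neighbours of the called members were looked at after their values were seen. Within 500 kb of Jun, 6 other genes had at least 5 CPM, and their log2 ratios ran from -0.28 to 0.25, so Jun was the gene past 2-fold among those measured in that window. The nearest of them, Mysm1, a histone deubiquitinase gene 69.9 kb away, stood at -0.21 (-0.37 to -0.04). Within 500 kb of Batf, 10 other genes passed the minimum, and 1 of them was past 2-fold. This was Tgfb3, which encodes transforming growth factor beta 3, 348 kb away, at 22.1 CPM with Dox and 4.87 CPM without, a log2 ratio of 2.14 (1.69 to 2.72). The genes between Batf and Tgfb3 that passed the minimum, Erg28 and Ttll5, stood at 0.03 (-0.16 to 0.23) and -0.28 (-0.44 to -0.11).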
